A study of Mus musculus with 4 samples.

Results

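Histone genes of the large clusters were examined for open chromatin in mouse intestinal organoids after 72 h of BMP2 and before it (0 h). The members are the protein-coding RefSeq genes with symbols of the histone series (beginning H1f, H2ac, H2bc, H3c or H4c, in older use Hist1 or Hist2) on chromosome 13 from 21.7 to 23.8 Mb and on chromosome 3 from 96.2 to 96.3 Mb of mm10. There are 61 of them among 21887 protein-coding genes, 51 on chromosome 13 and 10 on chromosome 3. They comprise 6 H1, 16 H2A, 15 H2B, 12 H3 and 12 H4 genes. A peak was taken to be at a gene when its midpoint, which is the summit of the authors' peak, lay within 1 kb of the gene.

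Accessibility was measured by ATAC-seq, in which the Tn5 transposase cuts open chromatin. C57BL/6J mice gave the crypts for the organoids, taken from the upper part of the small intestine (jejunum), and each library was made from 30000 cells. How many animals gave the crypts is not stated. For the 72 h library, CHIR99021 (which activates Wnt signalling by inhibiting GSK3), valproic acid (an inhibitor of histone deacetylases) and Noggin (an antagonist of BMPs) were withdrawn and BMP2 was added at 100 ng/mL, while EGF and R-spondin stayed in the medium. For the 0 h library, the organoids stayed in medium with CHIR99021, valproic acid, EGF, Noggin and R-spondin, without BMP2. BMP2 and the medium therefore changed together, and their parts in any difference cannot be told apart. Each time point is 1 library, so no p-value could be given, and intervals below are exact Clopper-Pearson 95% intervals that cover counting error only. The libraries of 24 h and 48 h were not analysed here.

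The core histones H2A, H2B, H3 and H4 form the protein spool around which nucleosomal DNA is wrapped, and H1 is the linker histone that binds where the DNA enters and leaves it. The genes of these clusters are called replication-dependent because their mRNAs accumulate in S phase, when new chromatin needs histones. They lack introns as a rule, and their mRNAs end in a stem-loop in place of a poly(A) tail. In the intestine, S phase cells lie in the crypt, and villus enterocytes no longer divide. H1f6 (Hist1h1t, H1t) is an exception within the cluster, since it encodes a linker histone of male germ cells.

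The sequences just before the starts of the H1 genes are shown because H1f6 was the one member without a peak. Each line gives the 150 bases before the annotated start (RefSeq, GRCm38.p6), read 5′ to 3′ along the gene. Capitals mark AAACACA (the H1 box), CCAAT and TATAAA on either strand.
H1f6, chr13:23695661-23695810, plus strand: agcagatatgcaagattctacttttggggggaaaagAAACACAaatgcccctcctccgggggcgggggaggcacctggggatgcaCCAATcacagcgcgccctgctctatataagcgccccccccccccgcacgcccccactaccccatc
H1f5, chr13:21780626-21780775, minus strand: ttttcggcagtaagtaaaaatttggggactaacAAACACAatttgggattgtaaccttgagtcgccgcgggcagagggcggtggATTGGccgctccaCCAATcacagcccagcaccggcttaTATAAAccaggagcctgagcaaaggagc
H1f3, chr13:23554882-23555031, plus strand: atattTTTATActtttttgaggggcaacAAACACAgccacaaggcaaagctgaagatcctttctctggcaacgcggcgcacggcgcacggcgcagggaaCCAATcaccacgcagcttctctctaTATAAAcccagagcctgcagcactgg
H1f4, chr13:23622559-23622708, minus strand: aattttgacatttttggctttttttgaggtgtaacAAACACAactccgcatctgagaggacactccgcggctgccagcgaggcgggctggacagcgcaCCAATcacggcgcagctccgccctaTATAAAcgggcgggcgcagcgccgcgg
H1f2, chr13:23738657-23738806, plus strand: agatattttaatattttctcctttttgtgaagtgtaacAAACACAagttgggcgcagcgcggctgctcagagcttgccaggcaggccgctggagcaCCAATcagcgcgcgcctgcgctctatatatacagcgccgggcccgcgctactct
H1f1, chr13:23763518-23763667, plus strand: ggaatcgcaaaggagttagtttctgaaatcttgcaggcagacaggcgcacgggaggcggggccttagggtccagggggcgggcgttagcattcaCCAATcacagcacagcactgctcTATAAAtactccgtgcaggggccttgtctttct

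The H1f6 stretch held the AAACACA and CCAAT letters, as did those of H1f5, H1f3, H1f4 and H1f2. The exact TATAAA letters were in the stretches of H1f5, H1f3, H1f4 and H1f1 and not in those of H1f6 and H1f2. The H1f1 stretch held no AAACACA. A match of letters is a description and does not show that a factor binds there.

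The DNA between the starts of 3 divergent H2A and H2B genes is shown next, because the summit nearest to it lay at different places in the libraries. It is given along the plus strand, with ATTTGCAT (the octamer of H2B promoters), CCAAT and TATAAA in capitals on either strand. The octamer letters were in the first of the stretches only.
H2ac8 to H2bc8, chr13:23571221-23571399, plus strand: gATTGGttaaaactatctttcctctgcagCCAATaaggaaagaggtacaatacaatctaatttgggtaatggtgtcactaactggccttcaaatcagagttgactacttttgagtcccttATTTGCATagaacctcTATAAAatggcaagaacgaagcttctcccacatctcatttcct
H2ac11 to H2bc11, chr13:22042950-22043197, plus strand: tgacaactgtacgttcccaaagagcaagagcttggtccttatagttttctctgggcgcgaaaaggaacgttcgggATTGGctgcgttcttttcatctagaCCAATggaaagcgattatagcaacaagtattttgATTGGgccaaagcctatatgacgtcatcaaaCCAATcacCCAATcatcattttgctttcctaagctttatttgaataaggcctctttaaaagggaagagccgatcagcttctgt
H2ac15 to H2bc15, chr13:21753913-21754075, plus strand: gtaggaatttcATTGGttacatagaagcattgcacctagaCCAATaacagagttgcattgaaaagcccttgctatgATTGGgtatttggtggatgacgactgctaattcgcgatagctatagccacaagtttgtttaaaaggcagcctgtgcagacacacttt

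From the H3 and H4 genes, H3c6 is shown because its summits lay at the start in both libraries and H4c3 as the nearest open neighbour of H1f6. H4c17 and H4c18 are shown as near-identical copies whose peaks passed different thresholds. Capitals mark CCAAT and TATAAA in all of them, and in the H4 genes GGTCC, the core of an H4 promoter element.
H3c6, chr13:23562386-23562535, minus strand: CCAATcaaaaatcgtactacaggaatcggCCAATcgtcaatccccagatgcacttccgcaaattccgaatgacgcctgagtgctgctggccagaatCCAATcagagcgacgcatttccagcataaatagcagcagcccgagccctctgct
H4c3, chr13:23698459-23698608, minus strand: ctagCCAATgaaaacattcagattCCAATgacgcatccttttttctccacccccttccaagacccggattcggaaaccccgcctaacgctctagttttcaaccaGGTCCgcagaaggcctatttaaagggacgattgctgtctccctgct
H4c17, chr13:21811596-21811745, plus strand: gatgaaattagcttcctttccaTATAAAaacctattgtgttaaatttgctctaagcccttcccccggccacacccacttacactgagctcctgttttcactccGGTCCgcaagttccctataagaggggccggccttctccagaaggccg
H4c18, chr13:21832198-21832347, minus strand: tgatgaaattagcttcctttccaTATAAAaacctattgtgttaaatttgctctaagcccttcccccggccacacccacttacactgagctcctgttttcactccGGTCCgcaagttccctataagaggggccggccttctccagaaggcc

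Nearly all histone genes were open in both libraries. Of the 61 members, 60 had a peak called at a p-value threshold of 1e-05 in the 72 h library and 60 in the 0 h library (98.4%, 91.2 to 100.0 each), and they were the same 60 genes. Among all other protein-coding genes the share with such a peak was 62.8% at 72 h, 63.7% at 0 h and 59.9% in both libraries. H1f6 was the exception: it had no peak in either library. The summits nearest to it lay 1852 bp away at 72 h and 1907 bp away at 0 h, both at the start of H4c3.

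The authors called peaks at 2 thresholds, and a call at 1e-10 is termed strict here. A strict peak lay at 56 members at 72 h (91.8%, 81.9 to 97.3) and at 55 members at 0 h (90.2%, 79.8 to 96.3), against 55.4% and 55.2% of all other protein-coding genes. At 54 members it was there in both libraries (88.5%, against 51.6%). H1f3 and H3c4 had a strict peak at 72 h only, and H3c11 at 0 h only. H1f1, H3c10 and H4c17 had peaks at 1e-05 alone in both libraries. These calls in 1 library, at 2 members and at 1, compare with 3.83% of all other protein-coding genes strict at 72 h only and 3.62% at 0 h only.

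**Figure D1:**
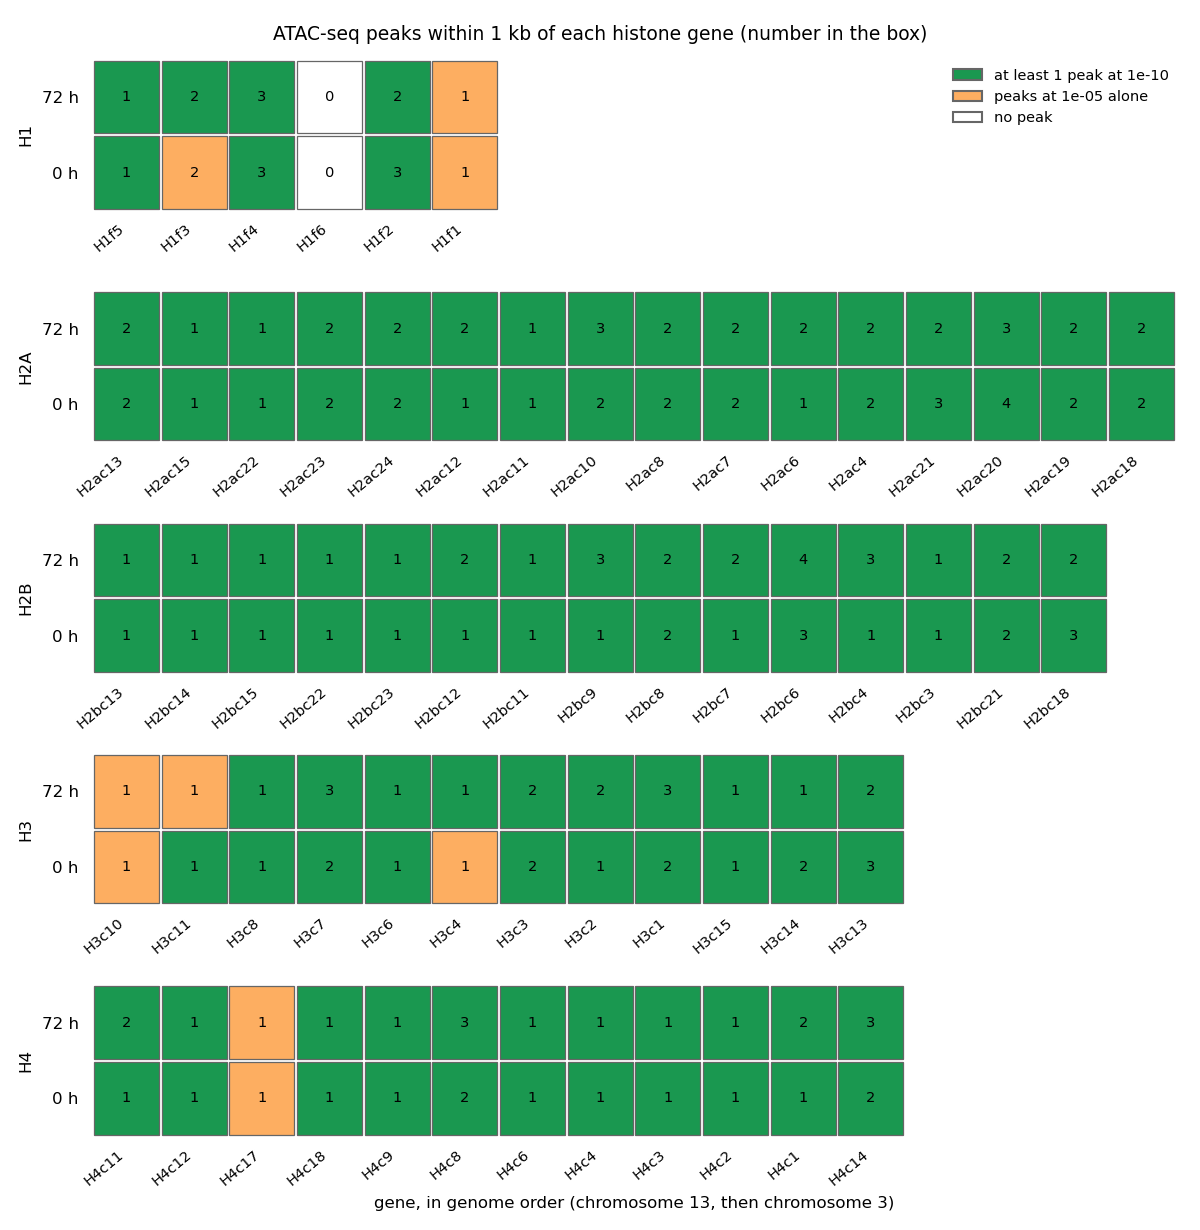
Each box is 1 histone gene in 1 library (72 h above 0 h), the number in it is the count of peaks within 1 kb, and the colour gives the stricter threshold reached. Boxes are empty for H1f6 alone, and the colour differs between the libraries for H1f3, H3c4 and H3c11.

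A window of 1 kb around a gene grows with the gene, so gene length was taken into account. The median member spans 493 bp, and 56 of the 61 span no more than 1 kb. Among these 56, 55 had a peak at 72 h and the same number at 0 h. Other protein-coding genes spanning up to 1 kb, a length limit chosen after seeing the data, had a peak in 4.01% at 72 h and 3.55% at 0 h. The kinds of gene among these 1521 were not examined, so they match the members in length alone. Of other genes no longer than the longest member (37455 bp, H2bc6), the shares were 56.1% and 56.7%. A window of fixed size gave the same picture: a peak overlapped the promoter window, 250 bp before to 50 bp after the start, at 53 of 56 members with a start in the RefSeq promoter table at 72 h and at 54 at 0 h. This was 94.6% and 96.4%, against 52.1% and 54.0% of all other protein-coding genes. The windows without a peak were those of H1f5, H1f6 and H3c13 at 72 h, and of H1f5 and H1f6 at 0 h. A peak called at 1e-10 overlapped the window at 46 of the 56 members at 72 h and at 47 at 0 h. This was 82.1% and 83.9%, against 46.8% and 47.9% of all other protein-coding genes.

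Of the 49 other protein-coding genes of the same intervals, 8 had a peak at 72 h and 8 at 0 h (16.3%, 7.32 to 29.7 each), against 62.8% and 63.7% of all other protein-coding genes. None of the 36 vomeronasal receptor genes (Vmn1r), which are used by sensory neurons of the vomeronasal organ, had a peak in either library (0%, 0 to 9.74). Of the remaining 13, 8 had a peak in both libraries (61.5%, 31.6 to 86.1), a share close to that of all other protein-coding genes: they were H4bc24, Zfp184, Prss16, Zfp322a, Abt1, Btn1a1, Btn2a2 and Hfe. H4bc24 carries the synonym Hist1h2br but its symbol places it outside the rule. At the strict threshold Zfp184 and Hfe (a regulator of iron uptake) had a peak at 0 h only.

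**Figure D2:**
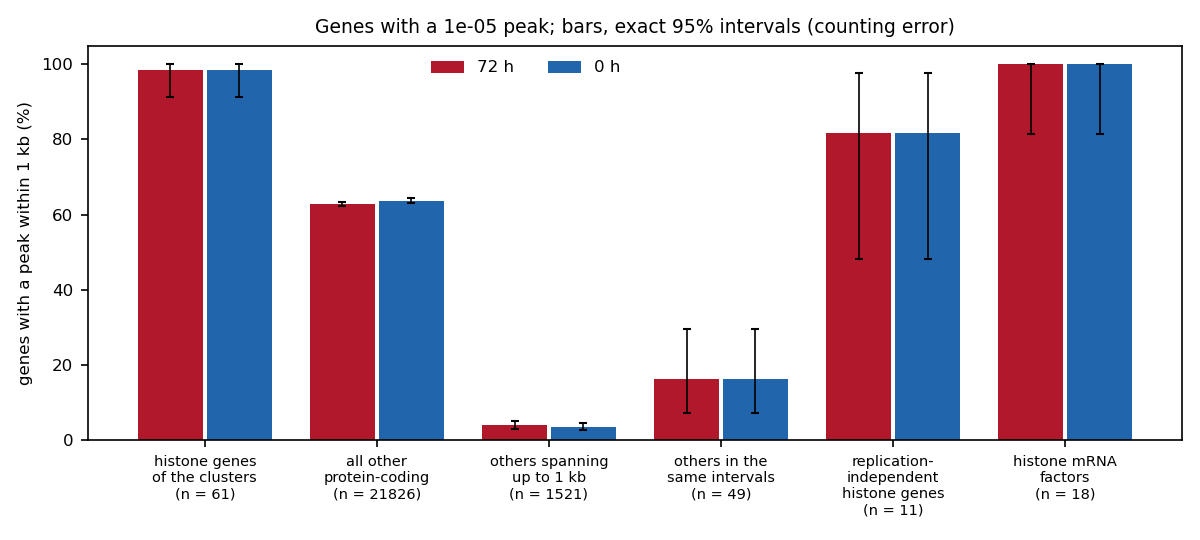
Bars give the percentage of genes with a 1e-05 peak within 1 kb at 72 h (left) and 0 h (right), with exact 95% intervals for counting error. The histone genes of the clusters reach 98.4% in both libraries, above all other protein-coding genes and above the other genes of the same intervals. Of these 49 other genes, 36 are vomeronasal receptor genes without a peak. The genes of histone gene transcription and mRNA 3′ processing reach 100% in both libraries.

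The peaks themselves numbered 69 at 72 h and 62 at 0 h. A member had a median of 2 peaks within 1 kb at 72 h and 1 at 0 h, with more at 72 h than at 0 h for 15 members, fewer for 6 and the same number for 40. The whole list was also longer at 72 h, with 41343 peaks against 35857 at 0 h. Changes in peak number per gene are not given for other genes, and 1 peak can count for several neighbouring members. Of the 72 h peaks, 67 (97.1%, 89.9 to 99.6) overlapped a 0 h peak by at least 1 bp, and all 62 0 h peaks (100%, 94.2 to 100) overlapped a 72 h peak. Other peaks within 1 kb of a protein-coding gene were shared less completely, at 75.6% for 72 h and 83.3% for 0 h. Peaks over promoters gave another background: of peaks over a promoter window of another protein-coding gene, 97.0% were shared at 72 h and 93.5% at 0 h, while over a promoter window of a member all 52 at 72 h (100%, 93.2 to 100) and all 50 at 0 h (100%, 92.9 to 100) were. Set against other promoters, the shared fraction of the histone peaks is therefore close to the background.

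Only 2 of the 69 peaks at 72 h (2.90%, 0.353 to 10.1) had no 0 h counterpart, against 24.4% of the other 72 h peaks near genes; for 0 h the counts were 0 of 62 (0%, 0 to 5.78) against 16.7%. Of other peaks over promoter windows, 3.00% at 72 h and 6.52% at 0 h had none, so the histone peaks are close to that background. When an overlap of at least 50% of each peak was required, the histone counts were 8 at 72 h (11.6%) and 6 at 0 h (9.68%). The shares of other peaks under this rule are not given here, so these counts cannot be set against a background. Of the 2 peaks, one lay at chromosome 13, 21733986 to 21734586, with its summit 748 bp before the start of H4c11 and 802 bp from the nearest 0 h summit, and it passed 1e-05 alone. The other lay at 23687114 to 23687714 within the long annotated span of H2bc4 (8282 bp), 3215 bp from one end of the gene and 5066 bp from the other. It was strict, and its nearest 0 h summit was 3223 bp away. It is also the single histone peak in the authors' list of regions enriched at 72 h (1 of 69, 1.45%), and the list for 0 h holds none (0 of 62, 0%). These lists add nothing to the classes above: all 4534 regions of the 72 h list and 1274 of the 1276 of the 0 h list were strict peaks with no counterpart in the other library. Of the other peaks near genes, 8.67% at 72 h and 2.98% at 0 h were in these lists, and of other peaks over promoter windows 1.08% and 1.66%, which is close to the histone shares.

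Among shared peaks, 47 of 67 were strict at 72 h (70.1%, 57.7 to 80.7) and 46 of 62 at 0 h (74.2%, 61.5 to 84.5). For other shared peaks near genes the shares were 73.7% and 69.5%, inside the intervals of the histone peaks. Over promoter windows, 75.0% (61.1 to 86.0) of the members' peaks were strict at 72 h and 82.0% (68.6 to 91.4) at 0 h, beside 82.9% and 83.5% of other shared promoter peaks. Peak height was not in the deposited lists, so a change in the degree of opening at a shared site could not be measured beyond these 2 thresholds. In bulk libraries, fewer cells with an open site and less opening per cell cannot be told apart either.

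Merged across both libraries, the peaks formed 53 sites. At 40 of them (75.5%, 61.7 to 86.2) a strict peak was called in both libraries, against 43.3% of the sites at other genes. Those include sites away from promoters, and sites over promoters alone are not given here. Among shared peaks over promoter windows, the members were not above other genes. Strict peaks made up 75.0% at 72 h and 82.0% at 0 h for members, beside 82.9% and 83.5%. The site contrast therefore cannot be called particular to histone genes. A further 6 sites were strict in neither (11.3%, 4.27 to 23.0, against 7.27%). The 3 sites strict at 72 h only (5.66%, 1.18 to 15.7, against 7.06%) were those at H1f3, at H2ac7 and H3c4, and at H4c1 and H3c1. The 2 sites strict at 0 h only (3.77%, against 4.68%) were those at H3c11 and at H2ac4 and H3c2. In these 3 classes the shares at other genes lay inside the counting intervals of the histone sites. The genes share these sites: 26 sites were within 1 kb of 1 member, 26 of 2 members and 1, at H2ac21, H2ac20 and H2bc21, of 3, so members are not independent observations.

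The members fall into 4 stretches in which neighbouring histone genes lie no more than 100 kb apart. On chromosome 13, a stretch of 120 kb holds 17 members, with 14 peaks at members at 72 h and 13 at 0 h. A short one of 10.5 kb holds 5 members with 4 and 3 peaks, and the last, of 235 kb, holds 29 members with 39 and 32 peaks. The stretch of chromosome 3 holds 10 members in 52.3 kb, with 12 peaks at 72 h and 14 at 0 h. It thus had fewer peaks at 72 h than at 0 h, and the 3 on chromosome 13 had more. Counting every peak, and 1 kb to either side of the outermost genes, the short stretch was the densest, with 3.80 peaks per 10 kb at 72 h and 2.85 at 0 h. In the 1485 kb that follow it, where the vomeronasal receptor genes lie, peaks stood at 0.121 and 0.162 per 10 kb.

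**Figure D3:**
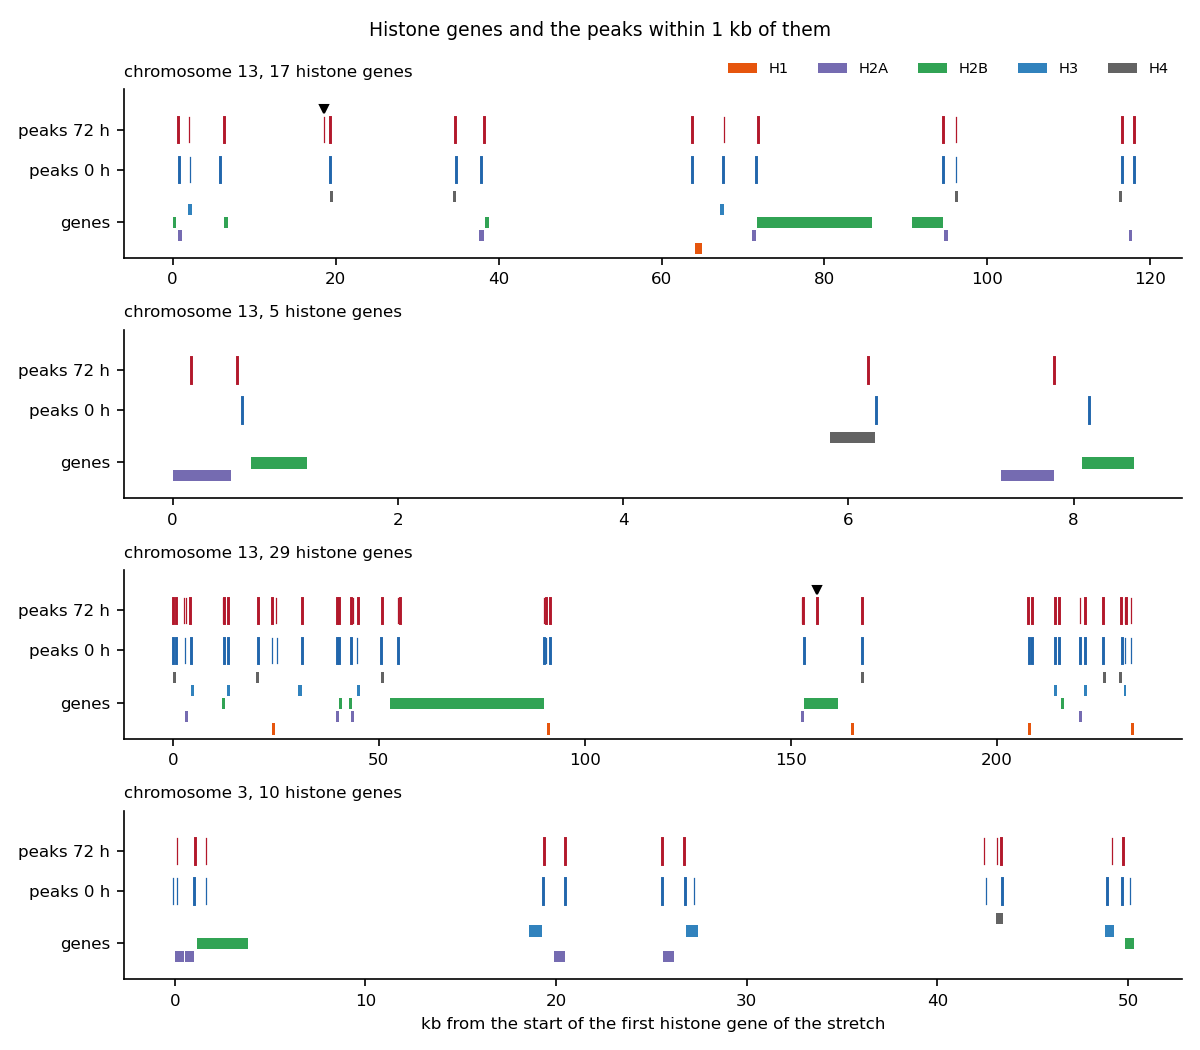
The 4 stretches are drawn to scale in kb from their first histone gene, with genes as blocks coloured by family and peaks within 1 kb of them as vertical lines (72 h above 0 h; thick lines are strict). The 2 black triangles mark the peaks at 72 h only.

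Among the linker histone genes, 5 of 6 had peaks in both libraries, and 4 had a strict one at 72 h and 3 at 0 h. H1f4 (H1.4) had 3 peaks in each library, 2 of them strict, with the nearest summit 10 bp downstream of the start at 72 h and 61 bp downstream at 0 h. Of its 3 peaks, 2 in each library also lay within 1 kb of H2bc6. H1f2 (H1.2) had 2 peaks at 72 h and 3 at 0 h, and its nearest summit lay 34 bp upstream at 72 h and 192 bp downstream at 0 h. These 2 genes were open at the start in both libraries. H1f3 (H1.3) had 2 peaks in each library, and the one at its start was strict at 72 h (39 bp upstream) and lenient, that is at 1e-05 alone, at 0 h (94 bp downstream). H1f1 (H1.1) had 1 lenient peak in each, 56 bp upstream at 72 h and 76 bp upstream at 0 h. H1f5 (H1.5) was open beyond its far end and not at its start: its single strict peak lay 1112 bp downstream of the start at 72 h and 1134 bp at 0 h, which is 319 and 341 bp past the end of the gene.

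All 16 H2A genes and all 15 H2B genes had a strict peak within 1 kb in both libraries. It was not always at the gene's own start. No strict peak overlapped the promoter windows of H2ac10 and H2ac21 in either library, or that of H2ac4 at 72 h. The single strict peak within 1 kb of H2ac10 in each library was also the nearest one to the start of H3c8. In genome order, H2ac13 had 2 peaks at 72 h and 2 at 0 h, H2ac15 and H2ac22 had 1 and 1 each, and H2ac23 had 2 and 2. The H2B genes H2bc13, H2bc14, H2bc15 and H2bc22 had 1 peak in each library. Peaks were more numerous at H2bc6, with 4 at 72 h and 3 at 0 h, and at H2ac20, with 3 at 72 h and 4 at 0 h. H2bc6 is annotated over 37455 bp and has a pair of starts, 1 of them next to H1f4, so the windows of these genes share peaks. In each library 2 peaks lay within 1 kb of both genes. At 0 h 1 of them held the summit nearest to a start of H2bc6, 138 bp upstream.

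Many H2A and H2B genes stand head to head with a short stretch of DNA between their starts. There were 10 neighbouring H2A and H2B members less than 300 bp apart, with gaps of 163 to 248 bp. For 8 of them the promoter table places the genes on opposite strands, pointing apart, and for H2ac6 with H2bc4 and H2ac20 with H2bc21 it lacks the strand of the H2B gene. A strict peak overlapped the gap at 10 of 10 pairs at 72 h and at 9 of 10 at 0 h, where H2ac15 and H2bc15 had none over the gap. The summit itself lay within the gap at 9 pairs at 72 h and at 6 pairs at 0 h. Peaks and summits between other divergent genes are not given here, so these pair counts have no background. The single pair with its summit outside the gap at 72 h was H2ac22 with H2bc22, at 125.5 bp from the centre of the gap. At 0 h the summit was outside the gap at H2bc13 with H2ac13, H2ac15 with H2bc15, H2ac11 with H2bc11, and H2ac8 with H2bc8.

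At the 3 pairs whose sequence is printed above, chosen because the summit moved, its place can be followed. Between H2ac8 and H2bc8 the nearest summit lay 2 bp from the centre of the gap at 72 h and 177 bp from it, inside H2bc8, at 0 h. Between H2ac11 and H2bc11 it lay 3 bp before the start of H2ac11 at 72 h and 64 bp inside H2bc11 at 0 h. Measured from the centre of that gap it lay at -121.5 bp at 72 h and at 188.5 bp at 0 h, so it was central in neither library. At H2ac15 and H2bc15 it lay 28 bp from the centre at 72 h and 301 bp inside H2ac15 at 0 h. In each of these cases the peaks, which extend 300 bp to either side of the summit, still overlapped between the libraries and counted as shared. The other pairs went both ways. The summit was nearer to the centre of the gap at 0 h for H2ac22 with H2bc22, H2bc23 with H2ac23 and H2ac12 with H2bc12. For the rest it was nearer at 72 h. With 1 library per time point it was not tested whether such shifts exceed those between replicates.

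Of the 12 H3 genes, 10 had a strict peak at 72 h and 10 at 0 h. H3c10 had 1 lenient peak in each library, 134 bp downstream of the start at 72 h and 222 bp downstream at 0 h. H3c11 had 1 peak in each, 63 bp downstream and lenient at 72 h, and 90 bp downstream and strict at 0 h. H3c8 had 1 strict peak in each library, and H3c7 had 3 peaks at 72 h and 2 at 0 h. H3c4 showed the reverse of H3c11: its peak was strict at 72 h, 181 bp downstream of the start, and lenient at 0 h, 11 bp upstream. H3c6 had 1 strict peak in each library, with its summit 8 bp downstream of the start at 72 h and 6 bp at 0 h. H3c13, on chromosome 3, had its nearest summit 366 bp downstream at 72 h and 138 bp downstream at 0 h, which put the 72 h peak off its promoter window.

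Of the 12 H4 genes, 11 had a strict peak at 72 h and 11 at 0 h. H4c11 had 2 peaks at 72 h, 1 of them the 72 h only peak described above, and 1 at 0 h, with nearest summits 40 and 54 bp downstream of the start. H4c12 and H4c18 had 1 strict peak in each library. H4c17 had 1 lenient peak in each library, 90 bp downstream at 72 h and 103 bp at 0 h. H4c17 and H4c18 are near-identical copies: their promoter windows, offset by 1 base, matched at 298 of 299 aligned bases, and the peak of H4c18 was strict in both libraries. Windows were also close for H3c14 and H3c15 (284 of 285 aligned bases), for H4c11 and H4c12 (274 of 286) and for H2ac18 and H2ac19 (249 of 260). How the authors placed reads that match several copies is not given in the sources used here, so the calls at such copies are uncertain.

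Summits stood close to gene starts, as at other genes. For the 55 members with a start in the table and a peak in both libraries, the median absolute distance from the start to the nearest summit was 88 bp at 72 h and 88 bp at 0 h. The other 10519 protein-coding genes treated in the same way had medians of 75 and 71 bp. The nearest summit was within 150 bp of the start at 40 members at 72 h (72.7%) and 38 at 0 h (69.1%), beside 70.7% and 73.6% of the other genes. The nearest summits to a start lay 3 bp from it at 72 h, at H2bc22 and at H2ac11 and H2ac19, and 2 bp from it at 0 h, at H2ac20. The farthest was that of H1f5 in both libraries, and after it H2bc3 at 72 h (430 bp) and H2bc15 at 0 h (465 bp). The position is given by family, with no test of a difference. With negative values upstream, the median position was -110 bp at 72 h and -133 bp at 0 h for H2B genes, and -50.5 and -44 bp for H2A genes. For H3 genes it was 98.5 bp at 72 h and 48 bp at 0 h, and for H4 genes 61 and 22 bp. For the 5 H1 genes it was -34 bp at 72 h, where 3 were upstream, and 94 bp at 0 h, where 1 was. Many H2A and H2B genes share 1 site between their starts, so these positions are not independent. Between the libraries, the nearest summit of the 54 members with a single annotated start differed by a median of 56 bp, by 50 bp or less at 23 and by more than 300 bp at 5. These 5 were H2bc14 (427 bp), H2ac15 and H2bc15 (355 bp), and H2ac11 and H2bc11 (310 bp). The genes of each of these pairs have the same nearest summit, so they are not separate cases. Shifts at other genes are not given here, so these counts have no background.

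**Figure D4:**
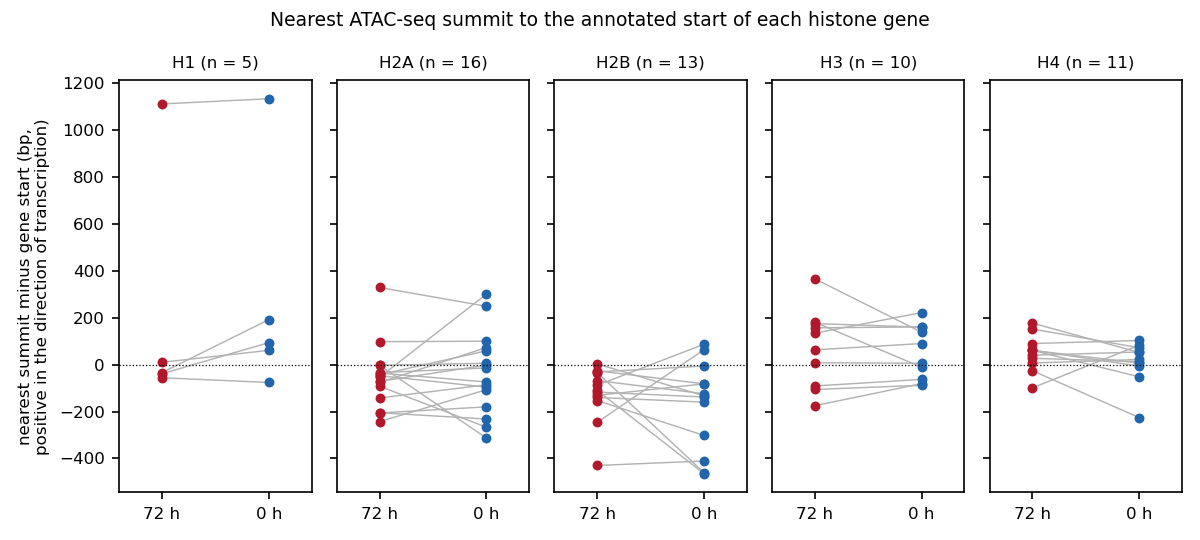
Points give the distance in bp from the annotated start to the nearest summit for each histone gene at 72 h (left) and 0 h (right), joined by gene, with positive values downstream. H2B summits lie mostly upstream, H4 and H3 summits mostly downstream, and H1f5 stands alone at 1112 bp at 72 h and 1134 bp at 0 h.

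Textbook elements of histone promoters were counted as exact letters on both strands of the 300 bp RefSeq promoter windows, which were at hand for 56 members and 17436 other protein-coding genes. CCAAT was in 48 of the 56 (85.7%, against 42.2% of the other genes): in every H1, H2A, H2B and H3 window and in 3 of 11 H4 windows. TATAAA was in 32 (57.1%, against 14.7%). A match counted wherever it lay in the window: at -33 bp from the start in H1f1, at -128 bp in H4c17 and at 15 bp in H2ac12. The count therefore does not give matches at a fixed distance from the start. ATTTGCAT was in 11 (19.6%, against 1.84%), which were 5 of 16 H2A and 6 of 13 H2B windows, and the shorter TTTGCAT contained in it was in 12 (21.4%, against 4.77%). AAACACA was in 7 (12.5%, against 7.15%), among them 5 of 6 H1 windows. GGTCC was in 24 (42.9%, against 52.3%), among them 10 of 11 H4 windows. TTTCGCG, a site of E2F type, was in 13 (23.2%, against 1.28%), all of H2A or H2B genes, and CACGTG was in none (0%, against 8.94%). Divergent H2A and H2B genes share part of their windows, so 1 match can count for both.

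Histone genes outside these clusters, and factors of histone gene transcription and mRNA processing, were counted in the same way; 55.4% at 72 h and 55.2% at 0 h of all other protein-coding genes had a strict peak. Of 11 replication-independent histone genes, which supply variants such as H3.3 and H2A.Z outside S phase, 9 had a strict peak at 72 h and 9 at 0 h (81.8%, 48.2 to 97.7 each). The exceptions were Macroh2a2 and H1f10, with no peak in either library. All 18 genes of histone gene transcription and mRNA 3′ processing had a strict peak in both libraries (100%, 81.5 to 100), among them Npat (the coactivator of the histone locus body), Slbp (the stem-loop binding protein), Lsm10 and Lsm11 (subunits of the U7 snRNP) and Hinfp (a factor of H4 promoters). None of these genes had a strict peak in 1 library only, against 3.83% at 72 h only and 3.62% at 0 h only of all other protein-coding genes.

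Read depth is unknown. As background for the marker counts, 62.8% of all other protein-coding genes had a 1e-05 peak at 72 h and 63.7% at 0 h. A strict peak lay at 55.4% and 55.2% of them. Of 16 markers of intestinal epithelium, 15 had a peak at 72 h and 14 at 0 h: Chga had none in either library, and Muc2 had one at 72 h only. At the strict threshold they were 12 and 12, with Krt20 and Muc2 at 72 h only, Krt18 and Ascl2 at 0 h only, and Olfm4 and Chga in neither. All 8 proliferation markers had a strict peak in both. Fibroblast and smooth muscle markers had peaks at 4 of 7 at 72 h and 2 of 7 at 0 h (Col1a1 and Pdgfra in both; Dcn and Col1a2 at 72 h only; Col3a1, Acta2 and Des in neither). Immune markers had peaks at 3 of 6 and 2 of 6 (Spi1 and Itgam in both; Csf1r at 72 h only; those with none in either library included Ptprc and Cd3e). Endothelial markers had peaks at 2 of 4 in each library (Tek in both; Pecam1 at 72 h only, Kdr at 0 h only, Cdh5 in neither). Those named as in both, Col1a1, Pdgfra, Spi1, Itgam and Tek, were strict in both. Dcn, Csf1r and Pecam1 were strict at 72 h only, and Col1a2 and Kdr were strict in neither. The part of such cells in the calls at histone genes was not tested.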

How the data were processed

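ATAC-seq libraries of organoids at 72 h and 0 h of BMP2 were used, 1 library each, with read depth unknown. The submitters' processing notes name mm10 and MACS2 2.2.7.1, Bowtie2 2.4.1, bedtools 2.26.0, Picard 2.18.27, cutadapt 1.9.1, deepTools 3.5.4 and SAMtools 1.3.1. Settings not given in the sources used here include any Tn5 shift, duplicate removal or placing of reads that match several copies. The authors deposited, per library, peak positions at 1e-05 and 1e-10 and a list named as enriched; each row has a position and a name carrying the library, other columns (heights, fold, p-value) are absent, and nearly all rows extend 300 bp to either side of a summit. The 1e-10 peaks are a subset of the 1e-05 peaks of the same library. Within the 4 histone stretches, the peak numbering skips 0 numbers at 72 h and 1 at 0 h, on chromosome 3.

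Gene positions came from a RefSeq table on GRCm38.p6 (mm10 is its browser name), and starts, strands and sequences from the RefSeq promoter table, which matched 56 of 61 members (not H2bc4, H2bc21, H3c1, H3c7 and H4c14). Genes on chromosomes 1 to 19, X and Y were counted. Exons, introns and UTRs were not resolved. Overlap functions were tested on simulated peaks. The members and lists were chosen with earlier results of these data known. Named genes were the members without a peak, with a peak or a strict peak in 1 library only, in an enriched list, with the most peaks, nearest or farthest in summit distance, and the first 4 of each family; the others were named after their values were seen. Alternatives were the distance, overlap, threshold, promoter window and subsets of members. Scripts used SciPy 1.17.1, pandas 2.3.3, numpy 2.4.6, Biopython 1.88 and matplotlib 3.10.9 on Python 3.11.15. The calls at 1 of the immune marker genes are not reported here by name.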

Additional observations from a re-analysis of the deposited data

How the results depend on the processing

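The counts of histone genes with a peak at 72 h, at 0 h and in both libraries stayed within 1.5 times their values of 60 under every alternative run. This is a loose limit, since the count cannot pass 61. Within 2 kb all 61 had a peak in each. With peaks overlapping the gene body the counts were 58 at 72 h, 54 at 0 h and 54 in both. With the 1e-10 lists they were 56, 55 and 54. The shared percentage of 72 h peaks was 88.4% and that of 0 h peaks 90.3% when an overlap of at least 50% of each peak was required; 8 peaks of 72 h and 6 of 0 h then had no counterpart. With the 1e-10 lists in both libraries, 93.5% of 0 h peaks were shared, and 4 peaks of 72 h and 3 of 0 h had no counterpart. The shares of other peaks under these settings are not given here, so the counts have no background. The count of 2 peaks at 72 h only was 1 within 0.5 kb, 1 with peaks overlapping the gene body, 1 for 1e-10 peaks set against 1e-05 peaks and 1 for members spanning up to 1 kb, a subset chosen after seeing the data, as was adding H4bc24. The other 70 values of 81 moved by less than their counting intervals or by less than 1.5 times. No paired analysis was possible because each time point is 1 library. No library could be left out, for the same reason. The closest peak outside the 1 kb limit had its summit 1654 bp from a member at 72 h and 1645 bp at 0 h; the farthest inside lay at 748 and 502 bp.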

Other observations

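Between and beside the histone genes, the same intervals hold 79 tRNA genes, which are transcribed by RNA polymerase III. Of these, 22 had a 1e-05 peak within 1 kb at 72 h and 37 at 0 h. All 22 also had one at 0 h, so 15 had a peak at 0 h only and none at 72 h only. At 1e-10 the counts were equal, 16 at 72 h and 16 at 0 h, with 4 genes in each library only. The 329 tRNA genes elsewhere had a 1e-05 peak at 146 (44.4%) at 72 h and 163 (49.5%) at 0 h, beside 27.8% and 46.8% of the 79. Of the 329, 24 had a 1e-05 peak at 0 h only and 7 at 72 h only. At 1e-10 they had one at 98 (29.8%) at 72 h and 110 (33.4%) at 0 h, beside 20.3% of the 79 in each. There, 10 of the 329 had it at 72 h only and 22 at 0 h only. Neighbouring tRNA genes share peaks, with 24 peaks at 72 h and 38 at 0 h at the 79 genes, and many are near-identical copies. This comparison was chosen after the data were seen, and the difference was not tested.

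Both histone pseudogenes of the intervals, H2ac14 and H2ac5-ps, had a strict peak within 1 kb in both libraries, against 51.6% of all other protein-coding genes. Peaks that they share with neighbouring members were not counted apart. H2ac14 lies next to H2bc14, whose nearest summit was 34 bp upstream of the start at 72 h and 461 bp upstream at 0 h.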
